A study of Arabidopsis thaliana with 15 samples.

Results

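Whole seedlings of Arabidopsis thaliana in which FAMA had been switched on with estrogen for 48 h were compared with uninduced seedlings of the same age. All 22746 of the 22746 probe sets for plant transcripts entered the comparison, with no choice by measured value, and 6 of the 15 arrays of the study belong to it. These are 3 arrays titled FAMA 48 h and 3 titled control 48 h. Seedlings of ecotype Columbia grew on nutrient medium with sucrose at 22 °C in constant light, and on day 5 they went to fresh plates with 10 µM estrogen or, for the controls, without it. They were 7 days old when collected. The controls carried no estrogen, so the induced FAMA and the inducer cannot be told apart in this comparison. Another set of 48 h seedlings, also on estrogen, expressed FAMA-EAR, in which FAMA is joined to the EAR repression domain. Seedlings collected 4 h after transfer, with FAMA induced or uninduced, gave the early time. The labels name neither the inducible promoter, nor the number of plant lines, nor the genotype of the controls. Whether the 3 samples of a group came from separate cultures is not stated, so every p-value rests on the spread between samples that may be technical repeats.

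FAMA is a basic helix-loop-helix transcription factor of the stomatal lineage. SPEECHLESS starts that lineage in the young epidermis, MUTE ends its asymmetric divisions, and FAMA acts last, when the guard mother cell divides once and its daughters become the guard cells around a stomatal pore. FAMA is also needed for myrosin cells, the cells along leaf veins that store the enzymes of glucosinolate breakdown. In a whole seedling, guard cells and their precursors are a small share of the tissue, and an inducible construct can put FAMA into cells that do not normally make it. The RNA came from bulk tissue, so fewer cells of a type and less RNA per cell cannot be told apart in any result below.

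The values are MAS5 signal intensities, a brightness per probe set on a linear scale. Array medians lay between 188.2 and 199 on 14 arrays and at 239.45 on the third FAMA 4 h array. Fold changes are given as differences of log2(signal + 20), which understates the change of dim probe sets. A probe set was called changed at an adjusted p under 0.05 in the limma fit across all probe sets, and all adjusted p-values below come from that fit. RNA integrity was read from the log2 ratio of 3' to 5' signal of actin and GAPDH. Averaged over both genes, it was 0.191 to 0.214 on the FAMA 48 h arrays and 0.297 to 0.496 on the 48 h controls. For actin alone it was 0.509 to 0.578 with FAMA and 0.819 to 0.957 in the controls. For GAPDH alone it was -0.15 to -0.123 and -0.363 to 0.035, so the groups differed by actin and overlapped by GAPDH. The part of these ratios in the results was not tested.

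FAMA itself (AT3G24140, TAIR10.1 chromosome 3, 8715118 to 8718211) gave signals of 255, 245.9 and 229.6 in the uninduced seedlings and 18576.3, 16934.1 and 18562.6 after 48 h on estrogen. The groups did not overlap, and the mean signal was 74-fold higher. Whether this signal held the induced copy, the plant's own gene or both was not tested.

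The response at 48 h was broad, and rises outnumbered falls among its strong changes. The fit called 4913 probe sets, 21.6% of all tested, with 2409 higher (10.6%) and 2504 lower (11.0%). Among changes of at least 2-fold, 537 were higher (2.36%) and 314 lower (1.38%), 3.74% of all together. Among changes of at least 8-fold, 39 were higher and 1 was lower. Of those 39, 23 have a single gene name in the annotation used here, so some of the strongest responses carry no name. The signals of the 2 groups did not overlap at 9027 probe sets (39.7%). The median log2 fold change over all probe sets was -0.02.

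The balance of rises and falls changed with signal level. In the dimmest 20 percent of probe sets, 0.571% were higher and 0.33% lower. In the brightest 20 percent, 21.0% were higher and 29.4% lower. In the brightest 5 percent, 14.2% were higher and 42.1% lower, with a median of -0.18, so counts of falls among abundant transcripts are read against that share here. After quantile normalization, which gives every array the same distribution of signals, the median of these brightest probe sets was -0.02. The nuclear chromosomes responded alike, with 9.21% to 9.98% of named probe sets higher on each of the 5 and 8.64% to 9.63% lower.

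**Figure D1:**
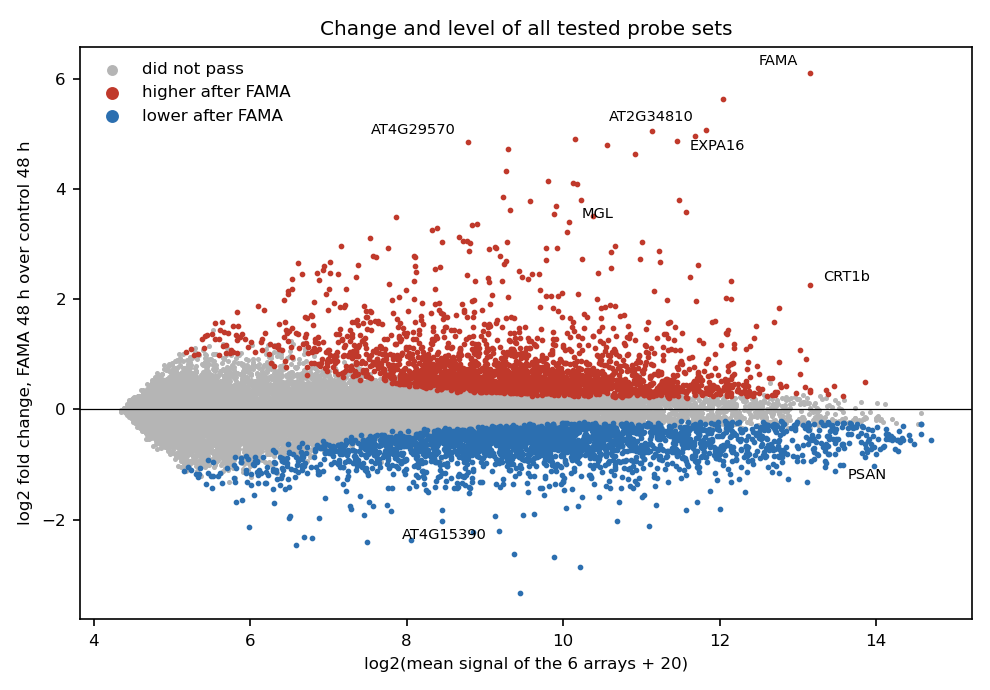
Log2 fold change of FAMA 48 h over control 48 h (vertical axis) against log2(mean signal of the 6 arrays + 20) (horizontal axis), with 1 point for each of the 22746 probe sets. The 2409 higher probe sets (red) reach 6.1 and the 2504 lower ones (blue) reach -3.33, and the right edge of the plot, where the brightest transcripts lie, holds more blue than red.

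The largest rises among named genes were in transcripts that were near the floor of detection or moderate in the controls. AT2G34810, which encodes a flavin-dependent oxidase related to berberine bridge enzyme, gave 196.5, 193.9 and 179.8 in the controls and 6220.4, 7080.6 and 7904.5 after FAMA, a 37.2-fold difference between means. EXPA16, an alpha-expansin, a protein that loosens the cell wall, gave 138.3, 194.2 and 171.2 against 5500.3, 5253.2 and 5486.4, or 32.2-fold. AT3G57600, a transcription factor gene of the AP2/ERF family, gave 125.8, 141.9 and 125.3 against 3589.3, 3732.7 and 3809.6, or 28.3-fold. In each of these 3 genes the lowest FAMA array lay far above the highest control array.

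AT4G29570, a cytidine deaminase gene, gave 6.3, 12 and 8.9 in the controls and 696.8, 741.7 and 1056.5 after FAMA. AT4G36700, of the cupin family, gave 14.3, 36.5 and 26.7 against 1485.3, 1021.5 and 1056.7. The control signals of both were so low that their fitted changes of 4.85 (SE 0.391) and 4.73 (SE 0.592) depend on the offset of 20, and ranged from 3.09 to 6.38 and from 3.35 to 5.54 over the alternatives tried. TET4, a tetraspanin, a small membrane protein that crosses the bilayer several times, gave 66.6, 80.3 and 33.1 against 1030.1, 1055.7 and 1224.7. Of the 14 other tetraspanins with a named probe set, 2 fell and 12 did not pass, and 1 fell without the second 48 h control.

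MGL, the methionine gamma-lyase that splits methionine, gave 147.9, 160.3 and 197.1 in the controls and 1937.8, 1795.6 and 2143.3 after FAMA, and rose by 3.4 on the log2 scale (SE 0.205, adjusted p = 1.17e-10). AAE16, of the acyl-activating enzyme family of fatty acid metabolism, gave 142.3, 105.8 and 138.4 against 1428, 1935.9 and 1798. The other genes among the 15 largest rises were AT3G58000, AT2G15830, AT5G66440, AT2G04460, AT5G42690, AT1G12030 and AT1G61930, with log2 fold changes of 3.29 to 4.15. The brightest of them was AT5G66440, whose mean signal went from 363.6 ± 14.6 to 5338 ± 331 (SD, n = 3 each). None of the 15 overlapped between the groups, which the choice of these genes required, and each kept its call when any 1 of the 6 arrays was left out. The filter at the 40th percentile of signal removed AT4G29570, AT4G36700, TET4, AT1G12030 and AT1G61930, and under the other alternatives all 15 kept their call.

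The largest falls among named genes were smaller than the largest rises. AT4G12500, of the lipid-transfer-like family of secreted proteins, gave 450.7, 411.9 and 418.9 in the controls and 79.8, 54.2 and 67.3 after FAMA, a fall of 2.37 on the log2 scale (SE 0.273, adjusted p = 1.28e-06). AT4G22610, of a related family, gave 266.3, 307.1 and 277.2 against 35.8, 47.4 and 30.7, a fall of 2.4 (SE 0.312, adjusted p = 6.22e-06). AT4G28940, a nucleoside phosphorylase-like gene, fell by 2.03 (SE 0.145, adjusted p = 1.8e-09). Genes whose groups overlapped were not eligible here.

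Bright transcripts were also among the largest falls, with smaller changes than the genes just named. AT1G23390, the Kelch-type F-box gene KFB-CHS, whose protein marks chalcone synthase for breakdown, gave 4687.7, 4009.8 and 5470.7 in the controls and 1243.5, 1104.3 and 1618.4 after FAMA. AT5G18600, a monothiol glutaredoxin gene, gave 1728.5, 1624 and 2028.2 against 585.8, 600.4 and 548.5. AT3G16530, a legume-lectin-like gene, gave 2962.2, 3460.4 and 2875.9 against 949.7, 1078.8 and 1108.4. The mean of each was between 2.96-fold and 3.57-fold higher in the controls than after FAMA. AT2G29300, of a cluster of tropinone reductase-like genes, fell by 1.74 (SE 0.222, adjusted p = 4.73e-06).

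**Figure D2:**
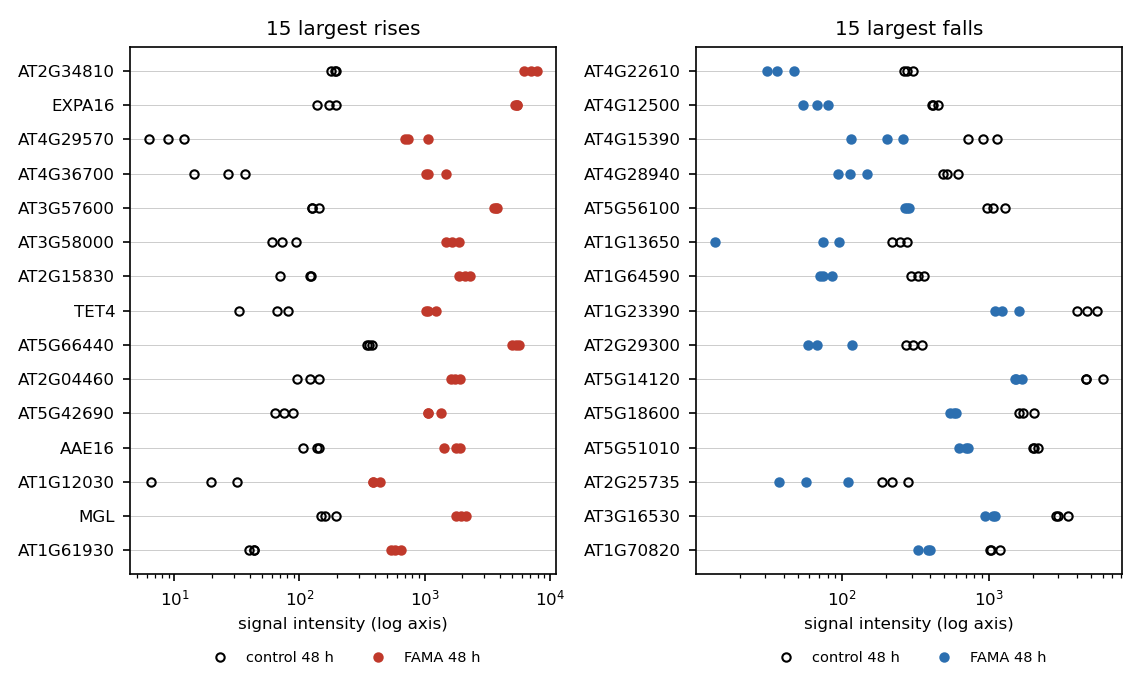
Signal intensity on each array (log axis) of the 15 named genes with the largest rises (left) and the 15 with the largest falls (right), with open circles for the 3 control 48 h arrays and filled circles for the 3 FAMA 48 h arrays. The 2 groups of circles are apart in every row because genes with overlapping groups were not eligible, and the distance between them is larger in the rises than in the falls.

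Guard cell genes with a named probe set were few, and most were higher. Of 5 measured, 3 rose, 1 fell and 1 did not pass, with a median of 0.92 against -0.02 over all probe sets. GC1 (AT1G22690), whose promoter is used to mark guard cells, gave 2757.9, 3129.3 and 3158.3 in the controls and 11729.6, 9281.8 and 11394.2 after FAMA. CHX20, a cation exchanger of guard cells, gave 170.7, 256.2 and 267.2 against 458.4, 469.5 and 479.3. The gene of the guard cell kinase BLUS1 (AT4G14480), which relays blue light, also rose, from 182.0 ± 35.4 to 362.1 ± 58.3 (SD, n = 3 each). The falling member was SWEET11, a sucrose exporter best known from the phloem.

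Regulators that act before FAMA were lower or did not pass. SPCH, the gene of SPEECHLESS, gave 243.3, 231.9 and 255.5 in the controls and 109.5, 126.6 and 176.2 after FAMA, and its groups did not overlap. STOMAGEN, a peptide from the mesophyll that promotes stomatal formation, was 1.81-fold higher in the controls than after FAMA. MUTE stood at -0.65 on the log2 scale (SE 0.425, adjusted p = 0.344). Its 15 arrays lay between 4.8 and 56.3. Of 8 measured genes of the G2 and M phases, 3 fell, 0 rose and 5 did not pass. The count of 3 was 1 without the second FAMA 48 h array or without the second 48 h control, and AUR1, an Aurora kinase of mitosis, was its steadiest member (fall of 0.56, adjusted p = 0.00187).

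Few markers of other cell types had a named probe set, and most of them did not pass. The summed signal of 4 root and root hair markers was 18880.0 to 21729.3 in the controls and 11368.9 to 13576.7 after FAMA, and almost all of it was PYK10, a beta-glucosidase of root endoplasmic reticulum bodies. The root hair expansins EXPA7 and EXPA18 had log2 fold changes of 0.18 and 0.47 and did not pass. Of 3 trichome markers 1 fell and 0 rose, the fall being lost without the second FAMA 48 h array or the first 48 h control, with sums of 528.2 to 695.0 and 382.3 to 477.9. Of 3 vascular markers 0 passed, with sums of 718.5 to 832.1 and 725.5 to 800.3. The part of cell-type shares in the results was not tested.

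Genes for protein folding in the endoplasmic reticulum, the entry point of the secretory pathway, mostly rose. Their list was added after values had been seen, as were others below that are named with the processing of the data. Of 12 measured, 9 rose, 0 fell and 3 did not pass, with a median of 0.53. CRT1b, a calreticulin that binds calcium and helps glycoproteins fold (chromosome 1, 2972638 to 2977002), gave 3368.1, 2997.5 and 3138.8 in the controls and 14396.3, 15066.6 and 15878.7 after FAMA. Its rise was 2.25 (SE 0.0829, adjusted p = 7.4e-14), with no overlap between the groups. ERDJ3B, a co-chaperone of the folding protein BiP, gave a mean of 1399.9 ± 104 in the controls and 3030.6 ± 97.1 after FAMA (SD, n = 3 each). OS9, which hands misfolded glycoproteins over for degradation, rose by 0.83 (SE 0.122, adjusted p = 2.63e-05).

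The transcription factor genes of the unfolded protein response were part of the same list. BZIP17, whose protein is released under folding stress, rose by 0.94 (SE 0.158, adjusted p = 0.00013). BZIP60, whose mRNA is spliced under that stress, rose by 0.60 (SE 0.147, adjusted p = 0.00433). BZIP28 rose by 0.46 (SE 0.126, adjusted p = 0.0102), but did not pass when the second FAMA 48 h array was left out (adjusted p = 0.0608) or when array medians were made equal (adjusted p = 0.0574). With array medians set equal, 8 of the 12 genes of the list rose.

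Further along the secretory pathway, some members of several families rose, but not all its lists leaned that way. Of 11 measured SEC genes of this pathway, 1 rose, 1 fell and 9 did not pass. Array-wide, rises had a share of 10.6% and falls one of 11.0%, and no difference of a family from these shares was tested. PRA1.B4, of the family of small prenylated Rab acceptors that sit on Golgi and endosome membranes, gave 741.6, 542.4 and 599 in the controls and 2253.9, 2381.5 and 2279.2 after FAMA. Of its 9 measured family members 2 rose, 0 fell and 7 did not pass, and 4 rose without the third FAMA 4 h array. The other riser was PRA1.B6, at 1.29 (SE 0.137, adjusted p = 4.42e-07). Of 10 measured VPS genes, which sort cargo into endosomes, 5 rose and 1 fell. The fall was lost without any 1 of the FAMA 48 h arrays or without the first or the third 48 h control. The count of 5 was 3 without the first or second FAMA 48 h array, without the second control, with array medians set equal or after quantile normalization.

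Of 4 measured vacuolar processing enzymes 2 rose and 0 fell. BETA-VPE, a vacuolar processing enzyme that matures proteins of storage and lytic vacuoles, gave 194.3, 129.1 and 172 in the controls and 541, 554.2 and 663.4 after FAMA. GAMMA-VPE, the form of vegetative tissue, gave 1333.3, 1561.5 and 1499.6 against 2782.8, 2732.3 and 3012.4. ALPHA-VPE and DELTA-VPE had log2 fold changes of 0.75 and -0.01 and did not pass. SCPL49, a serine carboxypeptidase-like gene, rose by 0.99 (SE 0.14, adjusted p = 1.85e-05), while its relative SCPL35 fell by 1.32 (SE 0.156, adjusted p = 1.76e-06). Over the 29 measured carboxypeptidase-like genes, 2 rose, 5 fell and 22 did not pass. Only 1 rose without the first or second FAMA 48 h array, without the first or second 48 h control, or under either other scaling.

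Among genes of starch, a pair of subunits of one enzyme stood out by size. APL3 and APL4 encode large regulatory subunits of ADP-glucose pyrophosphorylase, the enzyme that makes the building block of starch, in forms known for non-photosynthetic tissue. APL4 gave 59.7, 77.8 and 76.6 in the controls and 654.1, 718.5 and 833.1 after FAMA. APL3 gave 129.4, 119 and 84.5 against 860.4, 832.4 and 1243.6. Their rises were 3.05 (SE 0.236, adjusted p = 5.11e-09) and 2.92 (SE 0.214, adjusted p = 2.3e-09), and the other 6 measured genes of starch synthesis and breakdown did not pass.

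Among sugar transporter genes, falls outnumbered rises. Of 19 measured, 7 fell, 1 rose and 11 did not pass, with a median of -0.44, where 11.0% of all probe sets were lower. The count of 7 was 6 without any 1 of the 6 arrays compared or after quantile normalization. SWEET6, at -1.1 (adjusted p = 0.0498), was the least certain of the falls. SWEET2, a vacuolar glucose carrier, gave 1060.3, 1281.2 and 1228.9 in the controls and 597.1, 594.5 and 653.5 after FAMA. SWEET17 and SWEET16, tonoplast carriers of fructose and other sugars, fell, SWEET17 by 1.0 (SE 0.139, adjusted p = 1.41e-05) and SWEET16 by 0.54 (SE 0.131, adjusted p = 0.0046). SWEET1, a glucose carrier of the plasma membrane, fell by 0.97 (SE 0.153, adjusted p = 6.26e-05). The 1 riser of this list was TMT2, which loads sugars into the vacuole, at 444.1, 535.5 and 437.9 against 740.1, 709.4 and 792.5. SAG29, a sugar carrier gene counted with the senescence genes and not in this list, rose by 1.58.

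Genes of respiration outside the main cytochrome route and of amino acid breakdown rose in part. Of 16 measured, 6 rose, 1 fell and 9 did not pass, with a median of 0.49. PDC2, a pyruvate decarboxylase of fermentation, gave 578.3, 441.5 and 626 in the controls and 2249.8, 1615.2 and 1735.5 after FAMA. NDB2, an external NADH dehydrogenase of mitochondria, gave 590.9, 460.4 and 629.8 against 1572.6, 1527.5 and 1719.2. ALDH7B4, an aldehyde dehydrogenase of lysine breakdown and osmotic stress, gave 1599.1, 1627.3 and 1584.7 against 4310.7, 3902.4 and 4456.4. Both subunits of the electron transfer flavoprotein, which passes electrons from branched-chain amino acids to ubiquinone, rose: ETFBETA by 0.83 (SE 0.125, adjusted p = 3.53e-05) and ETFALPHA by 0.72 (SE 0.17, adjusted p = 0.00342).

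Transcripts for many steps of chlorophyll synthesis were lower. Of 10 measured genes 8 fell, 0 rose and 2 did not pass, with a median of -0.63, and 8 also fell after quantile normalization. CHLM, the magnesium protoporphyrin methyltransferase, gave 9150.2, 10125.9 and 9407 in the controls and 4427.4, 4191.9 and 4252.8 after FAMA. CHLI2, a subunit of magnesium chelatase, gave 1255.6, 1493.1 and 1304 against 690.9, 668.8 and 692.4. Earlier in the pathway, HEMB1, HEME1 and HEME2 fell by 0.55, 0.76 and 0.75, and at its light-driven step PORB fell by 0.71 (SE 0.108, adjusted p = 3.81e-05).

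Nuclear genes of the photosynthetic machinery fell as well, but so did many transcripts as bright as they are. Of 11 measured light harvesting and photosystem genes 8 fell, 0 rose and 3 did not pass, and the median was -0.72, or -0.39 after quantile normalization, where 8 still fell. Their summed signal was 133474 to 148200 in the controls and 87989 to 89400 after FAMA. PSAN, a subunit of photosystem I, gave 15437.3, 15467.7 and 15721.5 against 7020.7, 7662.9 and 6911. LHCB4.3, a minor antenna protein of photosystem II, was dimmer, at 514.6, 518.5 and 490.8 against 292, 281.8 and 289.2. All 4 measured genes of the Calvin cycle and photorespiration fell by 0.51 to 0.67, and RCA and HPR no longer passed after quantile normalization (adjusted p = 0.727 and 0.0804).

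The nuclear subunits and assembly factors of the plastid NDH complex, which returns electrons from ferredoxin to the electron transport chain, are less abundant and fell too. Of 9 measured 5 fell, 0 rose and 4 did not pass, with a median of -0.63. NdhL gave 2406.9, 2460.7 and 2465.1 in the controls and 1153.4, 1159.1 and 1136.4 after FAMA. NdhN fell by 0.88 (SE 0.126, adjusted p = 1.93e-05), and CRR21, which edits an ndh transcript in the plastid, by 0.88 (SE 0.138, adjusted p = 5.61e-05). Genes encoded in the plastid itself moved little: of 69 measured, 2 were higher and 3 lower, with a median of -0.14. Each of these 5 calls was lost under some setting. Without the second FAMA 48 h array or the third 48 h control 0 were higher, and without any other array of the 2 groups 1 was. Without the first FAMA 48 h array or the second 48 h control 0 were lower, and without the third 48 h control 1 was.

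**Figure D3:**
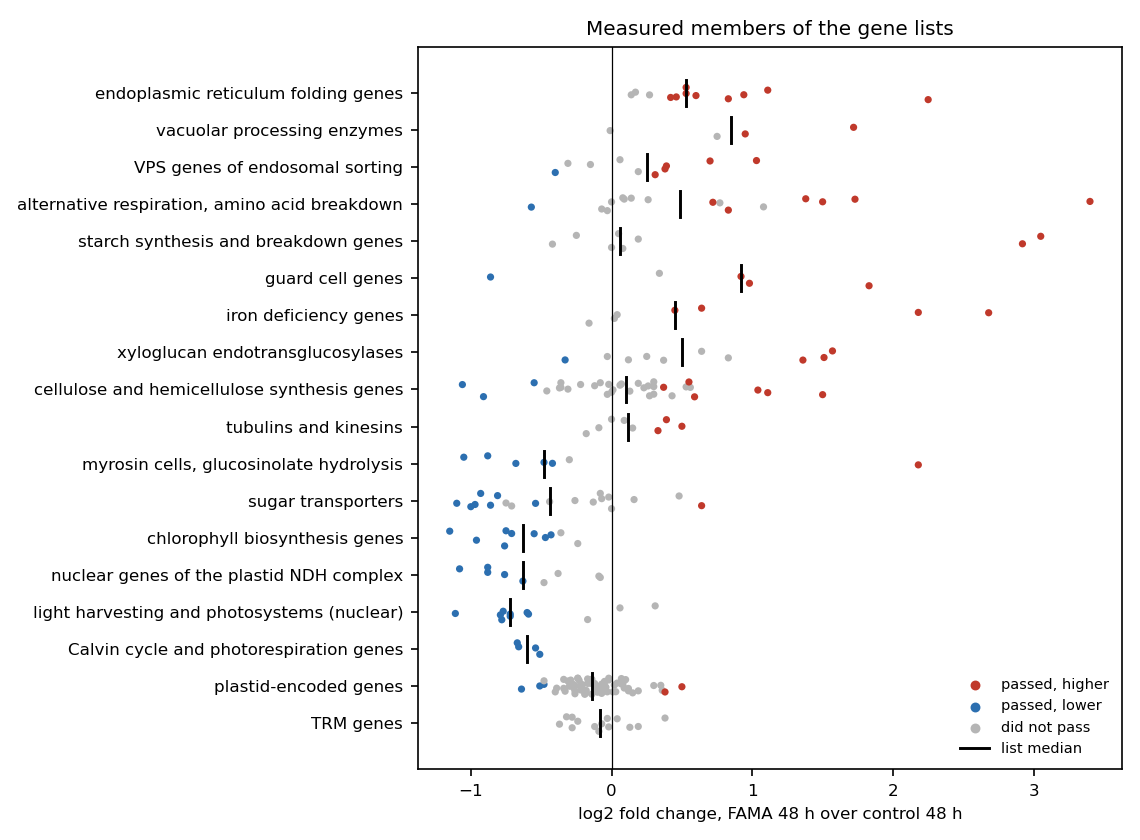
Log2 fold change of FAMA 48 h over control 48 h for the measured members of 18 gene lists, with 1 point a gene, red for those that passed and were higher, blue for those that passed and were lower, grey for the rest, and a black bar at the list median. Folding genes lie to the right of 0 with a median of 0.53, chlorophyll genes lie to the left with a median of -0.63, and the starch list has 2 members near 3 and the rest around 0.

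Cell wall genes changed member by member. PMEPCRF, a pectin methylesterase, which removes methyl groups from wall pectin, gave 863.1, 967.5 and 948.5 in the controls and 5679, 5145.2 and 6540.8 after FAMA. ATPMEPCRB, another gene of that family, fell by 1.05 (SE 0.161, adjusted p = 4.4e-05). XTH32, an enzyme that cuts and rejoins xyloglucan, gave 1386.2, 1213 and 1274.5 against 3850.5, 3722.2 and 4042.6. CSLC04, a synthase of the xyloglucan backbone, gave 1085.2, 998.2 and 953.5 against 2178, 2046.6 and 2056.9.

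In the TBL family, whose known members add acetyl groups to wall polymers, TBL38 rose by 1.5 (SE 0.137, adjusted p = 5.15e-08) and TBL45 fell by 1.06 (SE 0.134, adjusted p = 4.53e-06). Of all probe sets 10.6% were higher and 11.0% lower, and the counts in this paragraph do not set a family apart from these shares. Over the 34 measured genes of cellulose and hemicellulose synthesis 6 rose, 3 fell and 25 did not pass. Of 18 expansins 1 rose, 3 fell and 14 did not pass. EXPA16 was the riser, and EXPA8 fell by 0.75 (SE 0.146, adjusted p = 0.00063). Without the third FAMA 4 h array, which enters the fit through the shared estimate of spread, 2 expansins rose. Of 15 measured cellulases of the GH9 family 2 rose, 2 fell and 11 did not pass. GH9B12 rose by 1.53 (SE 0.298, adjusted p = 0.000593), GH9B16 fell by 1.1 (SE 0.366, adjusted p = 0.0349) and GH9B7 fell by 0.28 (SE 0.0766, adjusted p = 0.00921). Without the first or the third FAMA 48 h array 1 of the family rose, and without any 1 of the 6 arrays compared 1 fell.

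Several genes of the iron deficiency response rose. BHLH101, a transcription factor that switches on iron uptake genes, gave 95.1, 83.7 and 120.5 in the controls and 506, 512.4 and 532.5 after FAMA. IMA1 (AT1G47400), which encodes a small iron-sensing peptide, gave 561.6, 667.8 and 671.7 against 5030.2, 3735.3 and 3780.9. PYE, a repressor within the same network, rose by 0.64 (SE 0.135, adjusted p = 0.00119). Of 7 measured genes 4 rose, 0 fell and 3 did not pass. The fourth riser, AT3G13610 at 0.45 (adjusted p = 0.0343), was the least certain, and 3 rose without any 1 of the 6 arrays compared or under either other scaling. ILR3 and bHLH104, factors that act above BHLH101, had log2 fold changes of -0.16 and 0.03 and did not pass.

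Genes tied to glucosinolate breakdown, a trait of myrosin cells and of endoplasmic reticulum bodies, were mostly lower. Of 7 measured 5 fell, 1 rose and 1 did not pass, with a median of -0.48, or -0.35 after quantile normalization, where 5 still fell. All 7 were brighter than the median probe set, and 11.0% of all probe sets and 42.1% of the brightest 5 percent fell. All 5 that fell are genes of endoplasmic reticulum bodies or of jacalin-type lectins, and the myrosinase genes of myrosin cells had no named probe set here. JAL33, a jacalin-related lectin, gave 7021.2, 6238.5 and 6699.5 in the controls and 3353.9, 3070.6 and 3200.7 after FAMA. NAI2, needed to form these bodies, fell by 0.88 (SE 0.0684, adjusted p = 5.37e-09). The riser was JAL23, from 34.17 ± 12.6 to 224.2 ± 51 (SD, n = 3 each), and among 20 beta-glucosidases BGLU28, which breaks down glucosinolates under sulfur shortage, rose by 1.93 (SE 0.282, adjusted p = 2.62e-05).

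Among regulators, WRKY6 and WRKY42, related factors of phosphate and senescence responses, both rose. WRKY6 gave 214.6, 186.2 and 262.7 in the controls and 595.2, 707 and 675.2 after FAMA, and WRKY42 gave 57.4, 32.3 and 42.6 against 186.7, 212 and 233. WRKY47 fell by 0.73 (SE 0.167, adjusted p = 0.00251). Of 6 measured WRKY genes 2 rose, 2 fell and 2 did not pass. The other fall, that of WRKY22 at -0.79, was lost without any 1 of the 6 arrays compared other than the first 48 h control. BZIP44, a factor known from seed germination and low-energy responses, gave 272.5, 266.3 and 286.5 against 581.1, 684.7 and 682.5. Of 14 measured bZIP genes 5 rose, 2 fell and 7 did not pass. Without the second FAMA 48 h array 4 rose, and with array medians set equal 3 did. The falls were bZIP43 at -1.16 and bZIP58 at -0.88, both lost without the second FAMA 48 h array or the first 48 h control. DEWAX (AT5G61590), a repressor of cuticular wax genes in the epidermis, gave 2054.4, 2167.5 and 2234.5 against 756.7, 877.1 and 989.2.

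Few hormone genes had a named probe set, and some of them changed. GID1B, a gibberellin receptor, gave 198.5, 230.2 and 235.5 in the controls and 356.5, 398.4 and 445.5 after FAMA. GID1A rose by 0.40 (SE 0.112, adjusted p = 0.0115), but did not pass when the first 48 h control was left out (adjusted p = 0.0728) or when array medians were made equal (adjusted p = 0.0523), and GID1C had a log2 fold change of -0.02. OPCL1, of jasmonate synthesis, and MYC3, of jasmonate signalling, rose, OPCL1 by 0.82 (SE 0.172, adjusted p = 0.00119) and MYC3 by 0.56 (SE 0.13, adjusted p = 0.00278). PDF1.2b, a defensin gene induced by jasmonate, fell by 1.16 (SE 0.409, adjusted p = 0.0472), a call lost without any 1 of the 6 arrays compared other than the third 48 h control. Of the 8 measured jasmonate genes 2 rose, 1 fell and 5 did not pass, with a median of -0.24. Of 18 auxin response genes 3 fell, 0 rose and 15 did not pass, and the 3 were 1 without the second 48 h control.

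Some genes of the cytoskeleton and its partners rose, and a few fell. Of all probe sets 10.6% were higher and 11.0% lower, and counts as small as those below do not set a family apart from these shares. Of 8 tubulin and related genes 3 rose, 0 fell and 5 did not pass, with TUB1 and TUB9, both beta-tubulins, at 0.50 (SE 0.12, adjusted p = 0.00382) and 0.39 (SE 0.0799, adjusted p = 0.00102). IQD21, of a family of calmodulin-binding proteins on microtubules, gave 741.5, 807.7 and 663.8 in the controls and 1824.1, 1903.3 and 1934.1 after FAMA. NET3A, of a family of actin-binding membrane proteins, gave 109.6, 136.6 and 121.2 against 386, 303 and 268.6. Each of these 4 genes was higher on every FAMA array than on any control. Of 15 IQ-domain genes 3 rose, 1 fell and 11 did not pass, the fall being IQD24 (-0.61, SE 0.138, adjusted p = 0.00243). Only 2 rose without the second or the third FAMA 48 h array, without the first 48 h control or under either other scaling. Of 10 NET genes 2 rose, 1 fell and 7 did not pass. The fall was that of NET3C, at -0.87 (SE 0.267, adjusted p = 0.0225), and it was lost without the first or the third FAMA 48 h array, without the third 48 h control or after quantile normalization.

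Counts in large families are read against the 21.6% of all probe sets that passed, and no difference between families was tested. Of 14 TRM genes 0 passed, and their log2 fold changes lay between -0.37 and 0.38. Only 6 of the 14 were brighter than the median probe set, and dim probe sets were seldom called. Of 47 UDP glycosyltransferases 4 rose, 8 fell and 35 did not pass, with UGT72E1, which glucosylates precursors of lignin, falling by 1.18. The 8 falls were 5 without the first 48 h control.

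The effect of FAMA at 48 h was set against its effect at 4 h to ask which responses were late. The test of the difference passed for 3103 probe sets (13.6%), 1500 with a higher effect at 48 h (6.59%) and 1603 with a lower one (7.05%). The median difference over all probe sets was -0.14, and the split was 1444 higher to 964 lower once array medians were made equal. The third FAMA 4 h array has a median that stands apart, and with it left out 1663 probe sets had a higher and 1804 a lower effect at 48 h. Among singly named genes called at 48 h, AT4G36700, AT2G34810, AT4G29570, EXPA16 and AT2G04460 had the largest positive differences, from 4.11 to 5.43, where the largest over all probe sets was 5.58. Against the 4 h control alone 2.92% of probe sets passed, and the effects of these 5 genes at 4 h were -0.70, 0.41, 0.56, 0.72 and -0.43, of which that of EXPA16 passed (adjusted p = 0.00695).

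Late rises were also found in the functional groups. CRT1b differed between the times by 2.22 (SE 0.117, adjusted p = 6.97e-11), with an effect of 0.03 at 4 h, and APL3 and APL4 by 2.70 and 2.56. PMEPCRF had an effect of -0.71 at 4 h (adjusted p = 0.00131), and the difference was 3.32 (SE 0.164, adjusted p = 2.38e-11). Of 12 folding genes 4 had a higher effect at 48 h and 0 a lower one. Of 10 chlorophyll genes 7 had a lower effect at 48 h, as had 7 of 11 light harvesting and photosystem genes.

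A few transcripts were higher than control at 4 h and lower at 48 h. AT1G70820, a phosphoglucomutase-like gene, had effects of 1.41 (adjusted p = 4.45e-06) and -1.5 (adjusted p = 4.81e-08), a difference of -2.91 (SE 0.192, adjusted p = 1.91e-09). AT1G66100, a thionin, a small antimicrobial protein, had effects of 0.93 and -1.42. AT5G62360, a pectin methylesterase inhibitor-like gene, AT3G62550, of the universal stress protein family, and AT4G32340 differed by -2.19, -1.94 and -1.91. For each of these 5 genes both effects passed the test, with opposite signs.

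SWEET2 and KFB-CHS, in contrast, were already lower at 4 h. SWEET2 had an effect of -0.62 (adjusted p = 0.00383) at 4 h and -0.93 at 48 h, and the difference of -0.30 did not pass (SE 0.165, adjusted p = 0.256). KFB-CHS (AT1G23390) had effects of -0.80 (adjusted p = 0.012) and -1.83, and the difference of -1.03 passed (SE 0.243, adjusted p = 0.00568).

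Seedlings with FAMA-EAR had estrogen for the same 48 h, so their comparison with FAMA holds no difference in the inducer. Here 5168 probe sets passed (22.7%), 2522 higher with FAMA (11.1%) and 2646 lower (11.6%). The 3' to 5' ratio was 0.532 to 0.731 on the FAMA-EAR arrays, above every FAMA array, and its part in this difference was not tested. EXPA16 had the largest positive difference, 5.98 (SE 0.145, adjusted p = 5.21e-17), followed among named genes of the 48 h response by AT4G36700 (5.66), AT2G34810 (4.90), AT3G57600 (4.83) and AT3G58000 (4.22). Among the same named genes the largest negative differences, where the largest over all probe sets was -3.63, were in AT4G15390, an acyltransferase family gene (-3.02), AT1G13650 (-2.32), AT1G70820 (-2.29), AT3G62550 (-2.12) and AT5G62360 (-2.05).

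Most of the groups described above also parted FAMA from FAMA-EAR. CRT1b was higher with FAMA by 2.11 (SE 0.0829, adjusted p = 1.49e-13), and of 12 folding genes 10 were higher and 0 lower. APL4 and APL3 were higher by 2.87 and 2.76, and MGL by 3.62. Of 10 chlorophyll genes 8 were lower with FAMA and 0 higher, and of 9 nuclear NDH genes 6 were lower and 0 higher. Of 69 plastid-encoded genes 43 were higher with FAMA than with FAMA-EAR and 3 lower, while 5 of 69 passed between FAMA and its control. Their median was 0.84 for FAMA over FAMA-EAR and -0.14 for FAMA over its control. Against the 48 h control, accD stood at 0.07 with FAMA and -2.27 with FAMA-EAR, and atpA at -0.17 and -2.03. Not all were lower with FAMA-EAR than in the control: rpoA stood at 0.37 and psbZ at 0.33.

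For several genes FAMA-EAR seedlings lay on the other side of the control, although FAMA-EAR against control passed for 3.2% of probe sets. BHLH101 had a mean of 517.0 ± 13.8 after FAMA, 99.77 ± 18.8 in the 48 h controls and 19.07 ± 14.6 with FAMA-EAR (SD, n = 3 each). Its effect was 2.18 with FAMA and -1.68 with FAMA-EAR (adjusted p = 0.00102). EXPA16 had effects of 4.86 and -1.11 (adjusted p = 8.96e-05), and IMA1 of 2.68 and -0.81 (adjusted p = 0.0121). AT4G15390 had effects of -2.20 with FAMA and 0.83 with FAMA-EAR (adjusted p = 0.0305). Both effects of a gene use the same 48 h controls, so they are not independent.

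**Figure D4:**
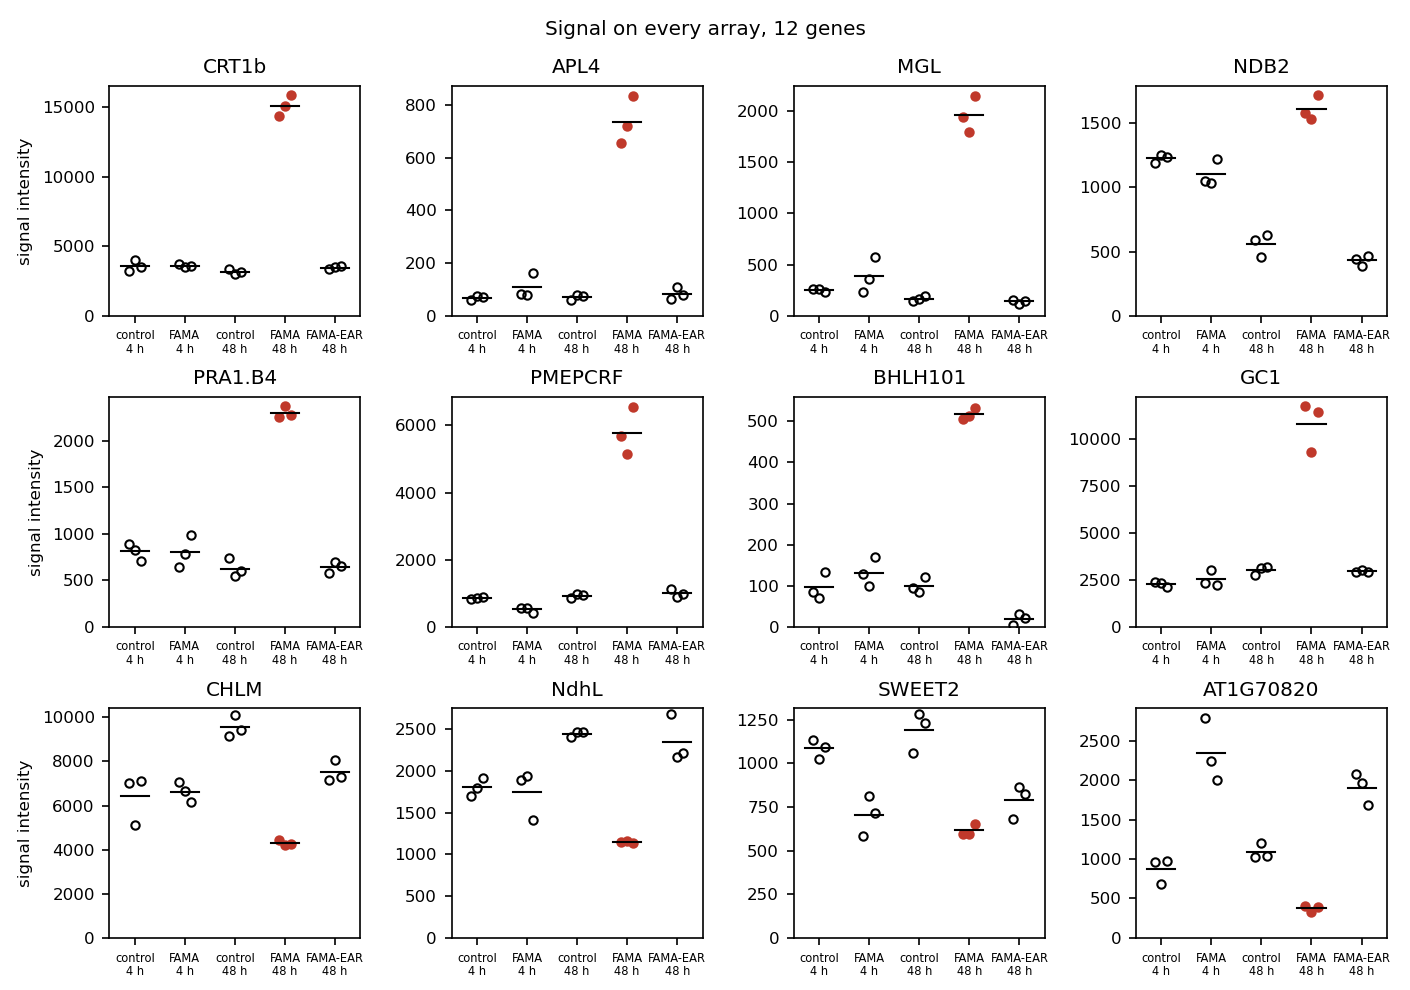
Signal intensity (linear axis from 0) of 12 genes on all 15 arrays, with 1 circle an array, a bar at the mean of each group and FAMA 48 h in red. In the first 8 panels the 3 FAMA 48 h arrays lie above every other array, and in the panels of CHLM and NdhL they lie below every other array.

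**Figure D5:**
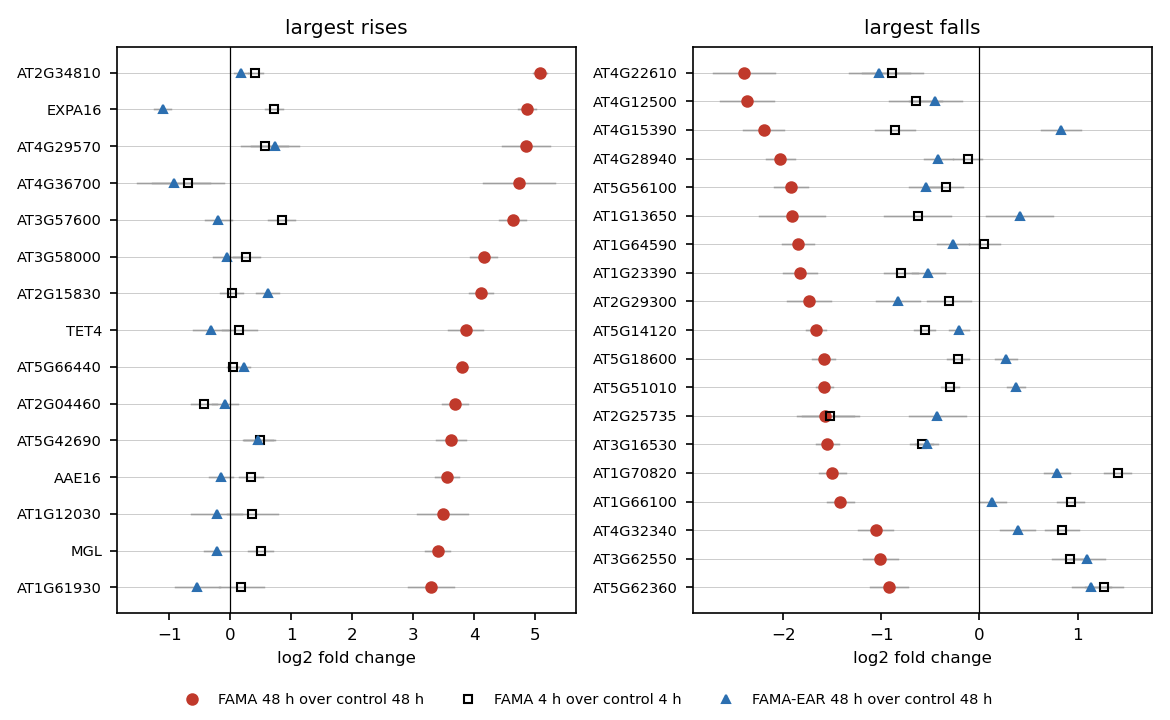
Log2 fold change of FAMA 48 h (red circles), FAMA 4 h (open squares) and FAMA-EAR 48 h (blue triangles), each over the control of its own time, for the 15 largest rises (left) and for the 15 largest falls with the falls that differed most from 4 h or from FAMA-EAR (right), with grey lines for 1 SE. On the left the other effects lie between -1.11 and 0.84 while the FAMA 48 h effects lie between 3.29 and 5.07.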

How the data were processed

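RNA from whole seedlings was labelled with biotin and hybridised to Affymetrix ATH1 arrays, per the labels' protocols. The authors deposited linear MAS5 signal intensities, per the submitters' processing notes. No source used here gives the software version or its settings. The mean of each array, with 2 percent of values trimmed at each end, was 500, as MAS5 scaling to a common target gives. A microarray has no read depth, and its precision is limited here by 3 arrays a group.

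After removal of 64 control probe sets, log2(signal + 20) of the remaining 22746 was fitted over all 15 arrays and 5 groups with limma 3.58.1 in R 4.3.3 (lmFit, then eBayes with a variance trend and 10 residual degrees of freedom). The offset is the median signal of 197.4 divided by 10 and rounded. No dim probe set was removed. P-values were adjusted by Benjamini-Hochberg over all 22746 probe sets, and 0.05 was the threshold. An exact permutation test of 3 arrays against 3 cannot give a two-sided p below 0.1, so none is reported. The contrasts were FAMA against control at 48 h, that effect minus the effect at 4 h, and FAMA against FAMA-EAR at 48 h. The fit was tested on simulated data. Settings tried as alternatives were other offsets, equal array medians, quantile normalization, a filter at the 40th percentile of signal, only the arrays compared, no variance trend, a replicate block and leaving out 1 array.

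Of the probe sets, 13513 had 1 gene in the platform annotation, 503 had several and 8730 are not named here. Of the 13513, 13436 were found in the TAIR10.1 reference table, which gave symbols and coordinates. Genes with several probe sets numbered 147. In 12 of them all probe sets were called, and in 0 of these 12 were the calls in opposite directions.

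The comparison, the gene lists and the tests were chosen with earlier results of these data known. Of 75 lists, 23 were added after values had been seen, and 10 had no named probe set. Among the added lists are those of starch, endoplasmic reticulum folding, vacuolar processing enzymes, alternative respiration, nuclear NDH genes and carboxypeptidase-like genes. Others are the beta-glucosidases, GH9 cellulases, IQ-domain, bZIP, PRA1, NET, VPS, SEC and TRM genes and the ubiquitin-conjugating enzymes. Members were matched by symbol, and 15 matches were left out because the symbol belongs to another gene. Named genes are FAMA, the 15 largest rises and the 15 largest falls with 1 gene name, groups that did not overlap and a mean above the median signal in the higher group, up to 6 called and 3 not called members of each list, and the 5 largest differences in each direction of the other contrasts among probe sets called at 48 h.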

Additional observations from a re-analysis of the deposited data

Results flagged for a closer look

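The effect of FAMA at 48 h differed from its effect at 4 h, by the test of the difference itself in the limma fit, at 3103 probe sets. The third FAMA 4 h array, whose median signal was 239.45 against 199 or less on the other 14, enters this test, and 3467 probe sets passed without it. Among named genes of the 48 h response, the largest positive differences on the log2 scale were 5.43 for AT4G36700, 4.66 for AT2G34810, 4.3 for AT4G29570, 4.15 for EXPA16 and 4.11 for AT2G04460. The largest negative differences were -2.91 for AT1G70820, -2.35 for AT1G66100, -2.19 for AT5G62360, -1.94 for AT3G62550 and -1.91 for AT4G32340. The controls used at 4 h were 5 days old and those at 48 h were 7 days old.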

How the results depend on the processing

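The 31 named genes with the largest changes, FAMA included, kept their call and direction under each alternative tried, except that 5 of them were removed by the filter at the 40th percentile and have no value there, while the other 26 kept theirs. Leaving out 1 array gave 3844 to 5830 called probe sets for FAMA against control at 48 h (higher 1843 to 2848, lower 2001 to 2982, at least 2-fold higher 497 to 559 and lower 285 to 340), 2448 to 3467 for the difference between 48 h and 4 h (higher 1167 to 1663, lower 1281 to 1804) and 4094 to 6154 for FAMA against FAMA-EAR (higher 1976 to 3016, lower 2118 to 3138). With an offset of 99, 317 probe sets were at least 2-fold higher and 156 lower in place of 537 and 314, since a larger offset shrinks each change. With array medians set equal, 964 in place of 1603 probe sets had a lower effect at 48 h than at 4 h. The plastid gene atpE went from -0.18 (adjusted p = 0.259) to 0.28 (adjusted p = 0.0089) after quantile normalization, and the cause was not tested. Of 737 named genes, 26 lost their call with equal medians and 28 after quantile normalization. With a replicate block, 4901 probe sets were called for FAMA against control at 48 h, 3091 for the difference between the times and 5218 for FAMA against FAMA-EAR. Any pairing by replicate number was weak: deviations of same-numbered FAMA and control 48 h arrays correlated at 0.013 to 0.027. Those of other pairs of these arrays were lower, at -0.022 to 0.003. Signal over background limits the dim genes: in the dimmest 20 percent of probe sets, where the control median was 14.43, 26 were higher and 15 lower.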

Other observations

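Genes beside FAMA on chromosome 3 were looked up after their values had been seen, so the following is a description. Of 17 named probe sets whose genes lie within 50 kb of FAMA, 6 were higher at 48 h and 0 lower, where 10.6% of all probe sets were higher. AT3G24150, at 9.0 kb, had a mean signal of 191.3 in the controls and 701.3 after FAMA. GFAT (AT3G24090), at 17.4 kb on the other side, had 84.0 and 328.9. Their log2 fold changes were 1.77 (SE 0.17, adjusted p = 1.11e-07) and 1.74 (SE 0.205, adjusted p = 1.75e-06). At 4 h they were 0.32 and 0.05, and with FAMA-EAR 0.26 and 0.18, none of which passed.

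Some genes of lists not described above also passed, where rises made up 10.6% and falls 11.0% of the whole array. Of 12 autophagy and senescence genes 6 rose and 1 fell, and 4 rose without the first or the third FAMA 48 h array, without the second 48 h control or under either other scaling. The fall was lost without the first or second FAMA 48 h array or without the first or the third 48 h control. SAG29, a sugar carrier gene induced in senescence, rose by 1.58, and ATG8B, of the ubiquitin-like proteins of autophagy, by 0.88. Of 12 ubiquitin-conjugating enzymes 3 rose and 1 fell, and 2 rose without the first or the third FAMA 48 h array, without the first or the third 48 h control or under either other scaling. The fall was lost without the second or the third FAMA 48 h array, without the first or the third 48 h control or with array medians set equal. UBC32, of the endoplasmic reticulum, rose by 0.51. Of 7 meristem and leaf identity genes 2 fell and 0 rose, YAB3 and YAB5, which mark the lower side of leaves, by 0.67 and 0.57. Of 4 glucosinolate synthesis genes 2 fell and 0 rose. GSTU20, a glutathione transferase, fell by 0.69, and BCAT4, an aminotransferase, by 0.45.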
